A study of Mus musculus with 8 samples.

Results

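The genes described here encode the nuclear pore complex and the carriers that move proteins and RNA through it. They were taken by name from the expression table: every Nup gene with a number, the importins alpha and beta (Kpna and Kpnb), the other importins (Ipo) and the exportins (Xpo), together with Ranbp2, Tpr, Ndc1, Pom121, Rae1, Aaas, Ran and Cse1l. That gave 47 genes of the 55335 listed, 25 of pore proteins and 22 of carriers and of Ran. The family was picked with TABS and HA/Mg values of these same libraries already known, so the counts below describe it and are not an independent test of it. RAW264.7, the source of the RNA, is a mouse tumour line with macrophage properties. The cells had been kept for 3 days either with TABS, the Trio-Active bone scaffold (4 libraries), or with HA/Mg, hydroxyapatite doped with magnesium ions (4 libraries). Neither cells grown without a scaffold nor the components behind the name Trio-Active are described in the labels used here. The replicates are numbered 5 to 8 in both groups, and nothing says that they were separate cultures, so p-values reflect the spread among these 8 libraries alone, and that spread may be technical. In the library names H marks TABS and L marks HA/Mg. The labels do not explain the letters, and a swap of the groups would turn every direction round.

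The nuclear pore complex is a large ring of many copies of each subunit, set into the nuclear envelope. A scaffold of Y complexes and an inner ring holds unfolded proteins rich in phenylalanine-glycine repeats, which fill the channel, while filaments project into the cytoplasm and a basket into the nucleus. Importins bind cargo in the cytoplasm and release it in the nucleus when they meet Ran bound to GTP, and exportins bind cargo together with Ran-GTP and release it outside. In dividing cells the pore comes apart at mitosis and Ran-GTP, importins and several nucleoporins act on the spindle. In macrophages the same carriers bring activated transcription factors such as NF-kB into the nucleus.

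The promoter windows of 4 members are shown because these genes bracket the results below. Kpna2 had the most negative log2 change of the family on the log2(FPKM + 1) scale (Ranbp2 by the ratio of means). Xpo1 and Nup107 kept their calls under every alternative except a replicate block, and Ipo4 had the largest positive change after Nup62. The 4 were chosen after their values were seen. Each window runs 5′ to 3′ along the gene from 250 bases before to 50 bases after a start site of RefSeq on GRCm38.p6. Capitals mark matches, on either strand, to 6 motifs: the CCAAT box (CCAAT), the cell-cycle homology region (TTTGAA), the E-box (CACGTG), and the NRF1, ETS (CCGGAAGT) and E2F (TTTCGCGC or TTTGGCGC) motifs.
Kpna2 (chr11:106999476-106999775, minus strand): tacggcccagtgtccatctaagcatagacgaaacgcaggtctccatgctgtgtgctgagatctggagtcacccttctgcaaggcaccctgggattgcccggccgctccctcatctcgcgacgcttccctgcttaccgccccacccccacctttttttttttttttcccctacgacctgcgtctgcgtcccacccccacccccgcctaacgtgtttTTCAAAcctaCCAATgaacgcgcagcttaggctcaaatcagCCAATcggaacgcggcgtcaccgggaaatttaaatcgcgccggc
Xpo1 (chr11:23255791-23256090, plus strand): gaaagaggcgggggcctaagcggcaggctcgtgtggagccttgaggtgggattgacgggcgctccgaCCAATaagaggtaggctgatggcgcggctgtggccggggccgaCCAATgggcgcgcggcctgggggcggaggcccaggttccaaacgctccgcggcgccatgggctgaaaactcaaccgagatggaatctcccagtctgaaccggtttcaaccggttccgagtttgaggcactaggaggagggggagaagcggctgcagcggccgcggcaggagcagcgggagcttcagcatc
Nup107 (chr10:117792656-117792955, minus strand): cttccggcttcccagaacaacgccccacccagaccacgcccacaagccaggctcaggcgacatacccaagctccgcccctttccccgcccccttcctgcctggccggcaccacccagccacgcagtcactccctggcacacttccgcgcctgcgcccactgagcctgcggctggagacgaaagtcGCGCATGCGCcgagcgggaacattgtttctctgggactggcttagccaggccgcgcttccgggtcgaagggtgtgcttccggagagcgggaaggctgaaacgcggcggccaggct
Ipo4 (chr14:55635635-55635934, minus strand): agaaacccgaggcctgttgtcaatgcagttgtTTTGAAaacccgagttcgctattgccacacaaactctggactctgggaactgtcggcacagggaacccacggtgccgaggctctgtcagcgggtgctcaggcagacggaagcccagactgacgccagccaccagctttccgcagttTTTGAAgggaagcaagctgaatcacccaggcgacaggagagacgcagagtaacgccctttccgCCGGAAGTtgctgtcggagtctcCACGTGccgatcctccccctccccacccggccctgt
None of these motifs contains another. The Kpna2 window holds 1 match to the cell-cycle homology region followed by 2 CCAAT boxes, the Xpo1 window 2 CCAAT boxes, and the Nup107 window 1 NRF1 motif. The Ipo4 window holds 2 matches to the cell-cycle homology region, 1 ETS motif and 1 E-box. Its start site lies 273 bases inside the annotated gene, so the whole window falls within that gene. For the other windows shown the distance from the annotated start was 0 to 16 bases. Of the 47 members 37 had a window within 1000 bases of the annotated start. The NRF1 motif was present in 5 of the 37 (13.5%), against 1.36% of all 17366 promoter windows of the same length and 2.46% of the 6858 windows of genes tested for expression. The CCAAT box was in 17 (45.9%, against 38.2% of all windows and 39.9% of those of tested genes) and the cell-cycle homology region in 8 (21.6%, against 15.4% and 11.8%). The E-box was in 8 (21.6%, against 8.21% and 11.1%), the ETS motif in 5 (13.5%, against 5.43% and 10.6%) and the E2F motif in 1 (2.70%, against 1.04% and 1.90%). Among the 17 windows of members that fell, 9 held a CCAAT box and 5 a cell-cycle homology region, against 8 and 3 of the 20 windows of other members. In the same order, the E-box was in 3 of 17 and 5 of 20, the NRF1 motif in 2 and 3, the ETS motif in 1 and 4, and the E2F motif in 1 and 0. A match is only a run of letters and shows neither binding nor a cause.

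Of the 46 members tested, 21 fell and 3 rose with TABS at an adjusted p under 0.05 (limma), while 22 did not pass. Over all 10161 genes tested 13.1% fell, 5.07% rose and 18.1% changed in either direction. Under median-of-ratios scaling the split over all genes was 806 higher and 1050 lower, against 515 and 1327 as deposited, and 17 members fell and 3 rose. The median log2 change of the tested members was -0.20 (the TABS mean of log2(FPKM + 1) less that of HA/Mg), against -0.04 for all genes tested. FPKM is scaled to transcript length and library size, so levels can be compared between genes. The members that fell were 1.13-fold to 1.65-fold lower with TABS, and no fall reached 2-fold. The remaining member, Kpna7, a form of importin alpha known from oocytes, was listed at 0 in all 8 libraries. The other 46 lay above 1 FPKM in every library, with 2.35 FPKM as the lowest single value, so none entered the test through 1 group alone.

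The libraries of the 2 materials did not overlap for 25 of the 46 members, 22 lower and 3 higher with TABS, against 15.0% and 8.05% of all genes tested. Summed over the 22 genes of carriers and Ran, the level was 789 to 802 FPKM in TABS libraries and 863 to 890.3 FPKM in HA/Mg libraries. Summed over the 25 pore genes it was 478 to 521 FPKM with TABS and 488 to 536 FPKM with HA/Mg, so there the sums overlapped. The pore sums include Nup62, which ran the other way, at 29.3 to 64.7 FPKM with TABS and 8.08 to 17.8 FPKM with HA/Mg. The members' median deviation from each gene's mean was -0.13 to -0.08 (log2) in TABS libraries. It was 0.11, 0.12 and 0.13 in HA/Mg replicates 5, 7 and 8 but -0.02 in HA/Mg replicate 6. That library was the lowest of the HA/Mg group for 18 of the 21 members that fell. Without it 28 members fell and 3 rose, while over all genes tested in that fit 24.1% fell and 8.57% rose, so the calls became more frequent over all genes too.

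**Figure D1:**
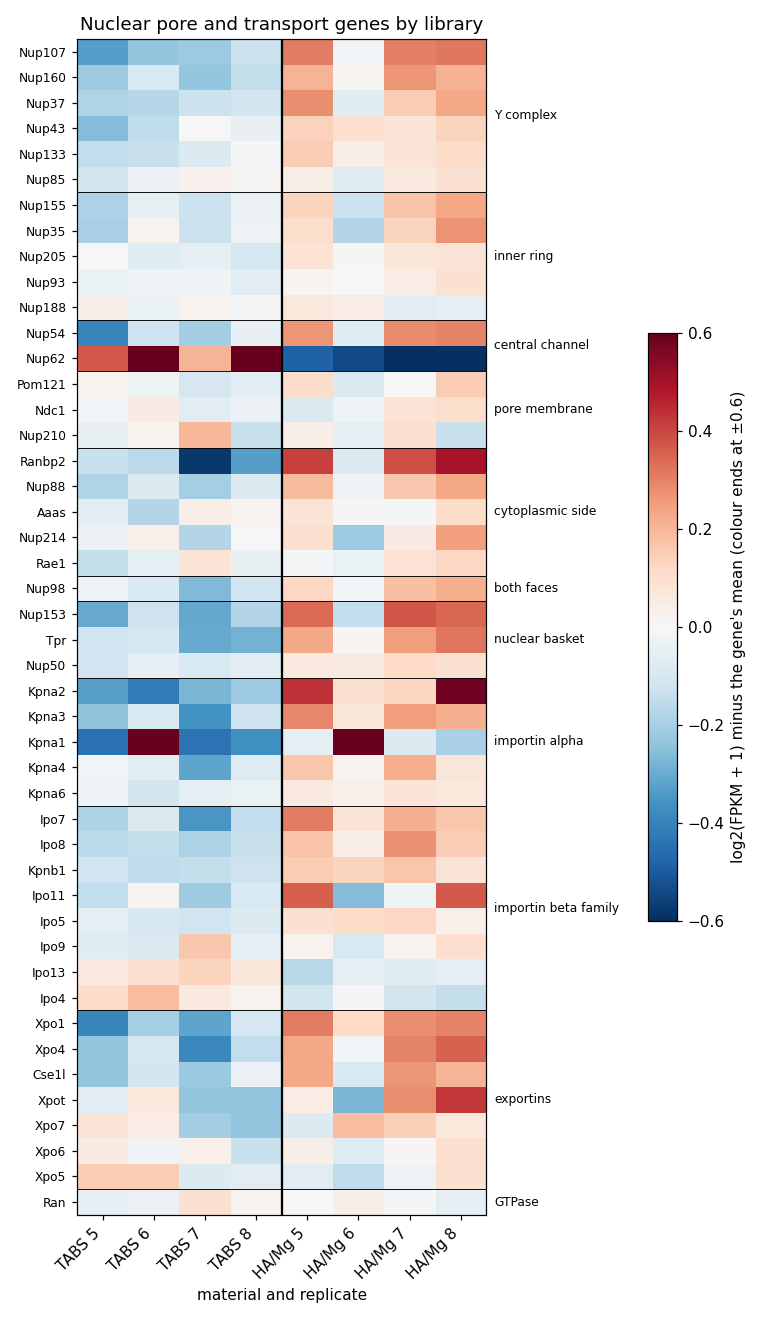
Expression of the 46 tested members (rows, grouped by role) in each library (columns, material and replicate number), as log2(FPKM + 1) minus the gene's own mean, with colours ending at ±0.6. Most rows run from blue under TABS to red under HA/Mg, and HA/Mg replicate 6 is paler than the other HA/Mg libraries. Nup62 runs the other way, and Kpna1 is high in replicate 6 of both groups.

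Facts of the libraries bear on all values. From the spacing of the smallest values the depth came to 19569472 to 23474178 fragments per library if whole fragments were counted, but only 33.9% to 35.9% of those low values came out whole within 0.05 fragment, so the depth is an estimate. On that estimate the member with the fewest fragments, Nup35, held 167 to 275 per library, a counting error of 6.03% to 7.75% that leaves out all other error. All 7 macrophage markers were expressed, with sums of 2126 to 2493 FPKM with TABS and 1791 to 2227 FPKM with HA/Mg. Of the 7, Cd68, Csf1r and Fcgr3 rose with TABS, and the part of that difference in the results below was not tested. Of the T cell markers Lck alone reached 1 FPKM, and the other 3 were at 0. Markers of fibroblasts and osteoblasts summed to at most 0.20 FPKM in any library, and those of epithelium, endothelium and B cells to at most 0.56 FPKM. In bulk RNA, fewer cells in a given state and less RNA per cell cannot be told apart.

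The Y complex, the outer scaffold of the pore and also a kinetochore component in mitosis, fell in 5 of its 6 members, with a median log2 change of -0.26. Beside this and each later count by role stand the 13.1% of all genes tested that fell and the 18.1% that changed in either direction. The roles also differ in GC content, as given further below. Nup107 stood at 21.5, 23.1, 23.4 and 24.9 FPKM in TABS replicates 5 to 8, against 34.0, 27.0, 34.0 and 34.3 FPKM in HA/Mg replicates 5 to 8. Every TABS library was below every HA/Mg library, and HA/Mg replicate 6 stood apart from the other 3. The log2 change was -0.46 ± 0.08 (SE, adjusted p = 0.0120), or 1.39-fold lower. Nup160, a further subunit of the Y, had 13.3, 14.7, 13.2 and 14.1 FPKM in cells with TABS, against 18.2, 15.8, 19.0 and 18.2 FPKM in cells with HA/Mg. These values did not overlap either, and the log2 change was -0.34 ± 0.06 (adjusted p = 0.0133). Nup37 averaged 11.9 ± 0.303 FPKM with TABS and 14.9 ± 1.66 FPKM with HA/Mg (SD, n = 4 each), Nup43 10.1 ± 0.885 and 11.9 ± 0.253 FPKM, and Nup133 5.77 ± 0.291 and 6.71 ± 0.255 FPKM. These 3 subunits fell too, at adjusted p of 0.0284, 0.0378 and 0.0425. Nup85 did not pass (33.5 ± 1.44 with TABS and 34.9 ± 1.72 FPKM with HA/Mg, adjusted p = 0.441).

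Of the 5 members of the inner ring, which anchors the scaffold to the membrane and to the channel, 0 changed by limma. Nup188 had nearly equal means of 51.5 ± 1.19 FPKM with TABS and 51.4 ± 2.35 FPKM with HA/Mg, and it was the most abundant pore gene of the family. Nup93 averaged 48.2 ± 0.742 and 50.9 ± 1.40 FPKM, and Nup205 37.6 ± 1.17 and 40.9 ± 1.01 FPKM. Both had every TABS library below every HA/Mg library without passing the test (adjusted p of 0.162 and 0.0673). Nup155 and Nup35 were lower in level, at 7.08 ± 0.381 and 3.20 ± 0.282 FPKM with TABS and 8.33 ± 0.977 and 3.74 ± 0.589 FPKM with HA/Mg (adjusted p of 0.104 and 0.244). The unadjusted p was under 0.05 for 2 of the 5. Nup35 shares 27.8% of its transcript, at 99.3% identity, with Gm4353, which stood at 4.39 ± 0.309 FPKM with TABS and 5.55 ± 1.003 FPKM with HA/Mg, so reads may have been split between them.

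The pore's membrane proteins, which hold it in the envelope, did not pass in any of the 3 cases by limma, and 0 of them had an unadjusted p under 0.05. Nup210 had 18.7, 19.7, 22.3 and 17.6 FPKM in cells with TABS, against 19.9, 18.6, 20.8 and 17.6 FPKM in cells with HA/Mg, and the groups overlapped throughout. Its log2 change of 0.02 ± 0.08 (adjusted p = 0.859) changed sign under some alternatives. Ndc1 averaged 18.9 ± 0.661 FPKM with TABS and 19.4 ± 1.27 FPKM with HA/Mg, and Pom121 13.6 ± 0.525 and 14.5 ± 1.16 FPKM.

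In the central channel Nup54, a repeat protein, fell while Nup62, its partner in the same complex, rose. Nup54 averaged 12.1 ± 1.34 FPKM with TABS and 16.2 ± 1.98 FPKM with HA/Mg (log2 change -0.39 ± 0.10, adjusted p = 0.0315). Nup62 stood at 33.0, 64.2, 29.3 and 64.7 FPKM in TABS replicates 5 to 8, against 17.8, 17.1, 15.9 and 8.08 FPKM in HA/Mg replicates 5 to 8. No TABS library reached down to an HA/Mg library, but TABS replicates 6 and 8 stood far above TABS replicates 5 and 7. The log2 change was 1.60 ± 0.31 (adjusted p = 0.0140), or 3.24-fold higher, the largest of the family. Nup62 (ENSMUSG00000109511) occupies bases 44816088 to 44830812 of chromosome 7, plus strand of GRCm38. Of its 2854 exon bases, 97 are shared with Il4i1 on the same strand and 82 with Atf5 on the opposite strand, all between 44816387 and 44816483. Il4i1, which encodes a secreted amino acid oxidase, had 2.67, 1.71, 1.60 and 1.24 FPKM in cells with TABS, against 0.6001, 0.867, 0.823 and 0.720 FPKM in cells with HA/Mg. Atf5, a stress-response transcription factor, had 13.0, 13.0, 9.94 and 10.9 FPKM in cells with TABS, against 10.1, 11.5, 10.3 and 10.4 FPKM in cells with HA/Mg. Il4i1 rose as well (log2 change 0.66 ± 0.14, adjusted p = 0.0168), and in neither gene were TABS replicates 6 and 8 the highest pair. Their part in the Nup62 values was not tested. A partner of both in the channel is listed under its older symbol Nupl1 (Nup58), outside the naming rule, and stood at 0 in all 8 libraries. Whether that 0 reflects the cells or the way the deposited values were made was not tested.

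Of the 5 genes of the cytoplasmic side 2 fell. Ranbp2 encodes the giant filament protein that binds Ran and acts as a SUMO ligase. It stood at 4.85, 4.74, 3.30 and 4.11 FPKM in TABS replicates 5 to 8, against 7.53, 5.04, 7.39 and 8.06 FPKM in HA/Mg replicates 5 to 8. The groups did not overlap, though HA/Mg replicate 6 lay just above the highest TABS library. Ranbp2 was 1.65-fold lower with TABS (log2 change -0.60 ± 0.14, adjusted p = 0.0230). Nup88, a linker on the same face, averaged 8.94 ± 0.437 FPKM with TABS and 11.0 ± 0.933 FPKM with HA/Mg (adjusted p = 0.0254). Nup214, the partner of Nup88, did not pass (9.34 ± 0.637 and 10.1 ± 1.44 FPKM, adjusted p = 0.518). Rae1, an mRNA export factor, averaged 47.0 ± 3.14 FPKM with TABS and 49.7 ± 2.68 FPKM with HA/Mg. Aaas, the gene mutated in human triple-A syndrome, averaged 29.4 ± 2.03 and 31.3 ± 1.29 FPKM, and neither passed. Nup98, found on both faces of the pore and a docking site for mRNA export, stood at 10.8, 10.4, 9.05 and 10.2 FPKM in cells with TABS, against 12.2, 10.9, 12.7 and 13.0 FPKM in cells with HA/Mg. Its libraries did not overlap, by a narrow margin, and its log2 change was -0.25 ± 0.07 (adjusted p = 0.0379).

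All 3 genes of the nuclear basket fell. Tpr, which builds the basket filaments, had 8.47, 8.57, 7.34 and 7.46 FPKM in cells with TABS, against 11.1, 9.36, 11.2 and 11.8 FPKM in cells with HA/Mg. The groups were apart, and the log2 change was -0.40 ± 0.08 (adjusted p = 0.0143). Nup153, which ties the basket to the ring, had 9.19, 10.5, 9.18 and 10.2 FPKM in cells with TABS, against 15.0, 10.4, 15.3 and 15.0 FPKM in cells with HA/Mg. Here HA/Mg replicate 6 lay inside the TABS range, and the log2 change was -0.46 ± 0.11 (adjusted p = 0.0284). Nup50, a mobile basket protein that helps to release import cargo, averaged 17.0 ± 0.350 FPKM with TABS and 19.1 ± 0.436 FPKM with HA/Mg (adjusted p = 0.0269).

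**Figure D2:**
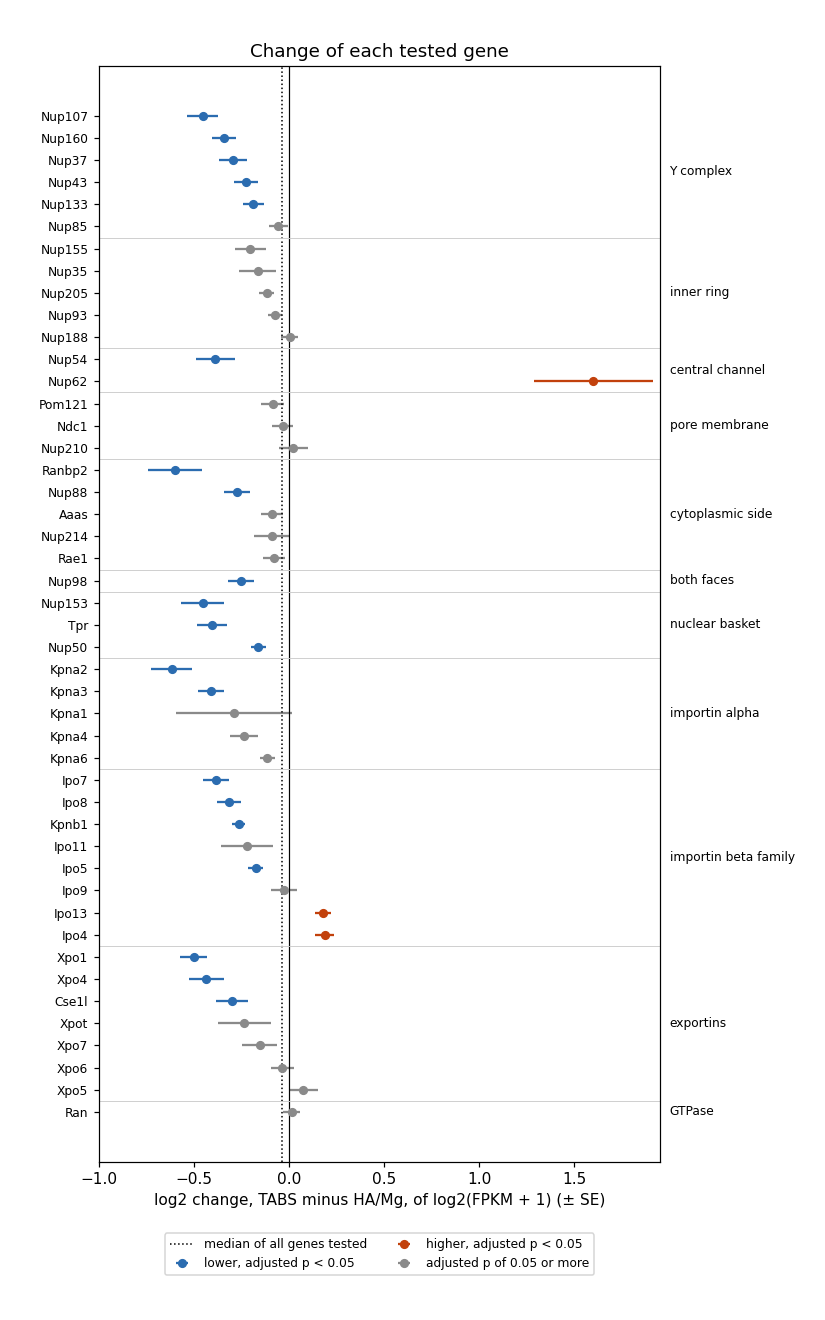
Log2 change of log2(FPKM + 1), TABS minus HA/Mg, with its standard error for each of the 46 tested members, grouped by role. Members past the threshold are coloured, the dotted line is the median of all genes tested, and 21 members lie left of 0 and 3 right of it with a call.

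Among the importins alpha, the adaptors that read the classical nuclear import signal, 2 of 5 tested genes fell. Kpna2, which is high in dividing cells, stood at 36.3, 33.9, 37.5 and 39.2 FPKM in TABS replicates 5 to 8, against 61.9, 48.7, 50.1 and 69.0 FPKM in HA/Mg replicates 5 to 8. All HA/Mg libraries were higher, and they spread more widely than the TABS libraries. Its log2 change was -0.62 ± 0.11 (adjusted p = 0.0113), the most negative of the family on the log2(FPKM + 1) scale with all 8 libraries. By the ratio of mean FPKM Kpna2 was 1.56-fold lower, less than the 1.65-fold of Ranbp2, and without HA/Mg replicate 6 Ranbp2 (-0.73) passed Kpna2 (-0.69) on the log2 scale too. Kpna2 (ENSMUSG00000018362) occupies bases 106988629 to 106999541 of chromosome 11, minus strand. Gm10184 matches 95.8% of its transcript at 99.9% identity and the processed pseudogene Gm10259 matches 77.4% at 99.8%, so reads may be shared among the 3. Med20 also matches 92.1% of it at 92.6% identity, and stood at 3.37 ± 0.222 FPKM with TABS and 3.27 ± 0.216 FPKM with HA/Mg. Gm10184 had 17.8 ± 1.55 FPKM with TABS and 24.5 ± 2.66 FPKM with HA/Mg, and Gm10259 had 19.4 ± 1.83 and 26.4 ± 2.67 FPKM. Both copies fell as well (log2 changes of -0.44 ± 0.09 and -0.42 ± 0.08, adjusted p of 0.0143 and 0.0153).

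Kpna3 had 19.8, 22.0, 18.1 and 21.5 FPKM in cells with TABS, against 28.9, 24.8, 28.2 and 27.5 FPKM in cells with HA/Mg. Again no library of either group lay within the other's range, and the log2 change was -0.41 ± 0.07 (adjusted p = 0.0113). Kpna4, its close relative, averaged 16.3 ± 1.53 FPKM with TABS and 19.3 ± 1.29 FPKM with HA/Mg and just missed the threshold (adjusted p = 0.0548). In human cells these 2 importins alpha carry NF-kB into the nucleus. Kpna6 averaged 22.9 ± 0.627 FPKM with TABS and 24.9 ± 0.372 FPKM with HA/Mg (adjusted p = 0.0659), also without overlap. Kpna1 had 4.09, 10.1, 4.11 and 4.38 FPKM in the TABS libraries, against 5.68, 12.1, 5.56 and 5.06 FPKM in the HA/Mg libraries, in the order of replicates 5 to 8. In both groups replicate 6 was far above the rest, and the difference between materials did not pass (adjusted p = 0.520). Kpna1 was singled out after its values were seen.

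**Figure D3:**
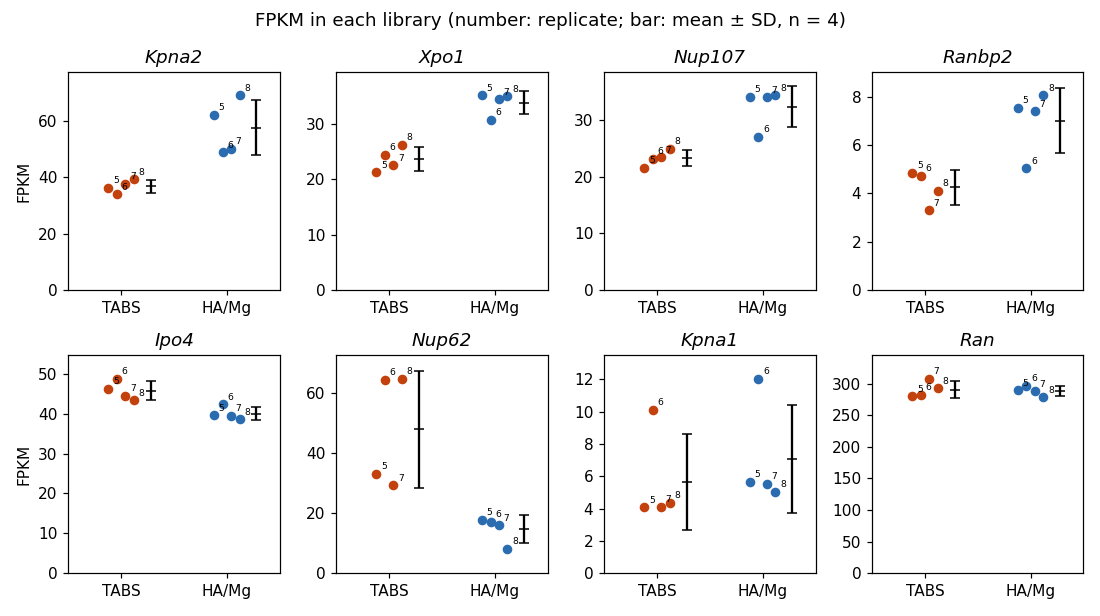
FPKM of 8 members in each library (points, marked with the replicate number) with the mean ± SD of each group beside them (n = 4), on axes that start at 0. Kpna2, Xpo1, Nup107 and Ranbp2 are lower with TABS, Ipo4 and Nup62 higher, Kpna1 is high in replicate 6 of both groups, and Ran overlaps.

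The importin beta family was the only role group with calls in both directions besides the channel, with 4 of 8 genes lower and 2 higher. Kpnb1 is importin beta itself, which carries the alpha adaptors through the pore. It stood at 84.5, 82.5, 83.0 and 84.1 FPKM in TABS replicates 5 to 8, against 102, 101, 103 and 96.8 FPKM in HA/Mg replicates 5 to 8. Both groups were tight and well apart, and the log2 change of -0.27 ± 0.04 (adjusted p = 0.00851) had the smallest p of the family. Kpnb1 (ENSMUSG00000001440) occupies bases 97159714 to 97187881 of chromosome 11, minus strand. Ipo5, which imports ribosomal proteins and histones, had 99.5, 96.5, 94.8 and 97.3 FPKM in cells with TABS, against 110.2, 111, 113 and 105 FPKM in cells with HA/Mg. Its libraries did not overlap, and its log2 change was -0.18 ± 0.04 (adjusted p = 0.0175). Ipo7, a carrier of ribosomal proteins, had 20.8, 22.4, 18.5 and 21.5 FPKM in cells with TABS, against 29.8, 25.3, 27.8 and 26.8 FPKM in cells with HA/Mg (log2 change -0.38 ± 0.07, adjusted p = 0.0120). Its relative Ipo8, the member with the lowest mean level above 0, had 2.41, 2.46, 2.35 and 2.48 FPKM in cells with TABS, against 3.30, 2.92, 3.62 and 3.23 FPKM in cells with HA/Mg (log2 change -0.31 ± 0.06, adjusted p = 0.0157). For both relatives each TABS library was below each HA/Mg library.

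The importins that rose were Ipo4, a carrier of histones and ribosomal proteins, and Ipo13, which works in both directions. Ipo4 averaged 45.7 ± 2.37 FPKM with TABS and 40.0 ± 1.65 FPKM with HA/Mg, a log2 change of 0.19 ± 0.05 (adjusted p = 0.0328). Ipo13 averaged 28.6 ± 0.697 FPKM with TABS and 25.2 ± 0.923 FPKM with HA/Mg, a log2 change of 0.18 ± 0.04 (adjusted p = 0.0231). In both the groups did not overlap. Of the 4669 exon bases of Ipo4, 2583 are shared with Gm49378 on the same strand, which averaged 1.54 FPKM over the 8 libraries. Ipo9, a histone carrier, averaged 18.9 ± 1.69 FPKM with TABS and 19.2 ± 1.08 FPKM with HA/Mg, and Ipo11, which imports ubiquitin-conjugating enzymes, 6.24 ± 0.489 and 7.55 ± 1.77 FPKM, and neither passed.

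Among the exportins 3 of 7 fell. Xpo1, the main export receptor for proteins with a leucine-rich export signal, stood at 21.3, 24.5, 22.5 and 26.3 FPKM in TABS replicates 5 to 8, against 35.2, 30.8, 34.5 and 35.0 FPKM in HA/Mg replicates 5 to 8. The lowest HA/Mg library, replicate 6, was still above the highest TABS library. Xpo1 (ENSMUSG00000020290, chromosome 11 from 23256041 to 23298249 on the plus strand) was 1.43-fold lower with TABS (log2 change -0.50 ± 0.07, adjusted p = 0.00851). Xpo4, which exports the translation factor eIF5A, had 4.68, 5.24, 4.11 and 5.03 FPKM in cells with TABS, against 6.85, 5.62, 7.23 and 7.54 FPKM in cells with HA/Mg (log2 change -0.44 ± 0.09, adjusted p = 0.0184). Its groups were apart as well. Cse1l, which returns importin alpha to the cytoplasm, had 17.1, 18.7, 17.2 and 19.7 FPKM in cells with TABS, against 23.9, 19.0, 24.5 and 23.5 FPKM in cells with HA/Mg. TABS replicate 8 exceeded HA/Mg replicate 6, so the groups overlapped, and the log2 change was -0.30 ± 0.08 (adjusted p = 0.0378).

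The exportins with more specialised cargo did not pass. Xpot, the tRNA exporter, averaged 19.2 ± 2.04 FPKM with TABS and 23.1 ± 4.90 FPKM with HA/Mg (adjusted p = 0.247). Xpo5, the exporter of microRNA precursors, averaged 21.1 ± 1.997 and 19.97 ± 1.49 FPKM (adjusted p = 0.501). Xpo6, the exporter of actin, whose transcript has stretches in common with those of 36 other expressed genes, averaged 7.91 ± 0.495 and 8.13 ± 0.465 FPKM, and Xpo7, a receptor of broad cargo, 7.24 ± 0.935 and 8.16 ± 0.733 FPKM.

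Ran itself, the GTPase that gives transport its direction, was by far the most abundant member. It had 279.8, 282, 308 and 293 FPKM in TABS replicates 5 to 8, against 289, 297, 287 and 278 FPKM in HA/Mg replicates 5 to 8. The groups overlapped and the log2 change was 0.01 ± 0.04 (adjusted p = 0.865), with a sign that turned under rescaling to equal sums (-0.04) and quantile normalization (-0.08). The processed pseudogene Gm13461 matches 27.3% of the Ran transcript at 97.3% identity and stood at 75.3 ± 3.12 FPKM with TABS and 75.5 ± 1.45 FPKM with HA/Mg, so part of the Ran reads may lie there.

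In all, the 22 members that did not pass had log2 changes of -0.29 to 0.07 and adjusted p of 0.0548 to 0.969, and 15 of them differed by less than 10% between the group means. Among them 4 of the 22, Nup93, Nup205, Kpna6 and Kpna4, had every TABS library below every HA/Mg library. Of all genes tested, called or not, 15.0% had the same.

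Genes of the same pathway outside the naming rule were read from 4 further lists. Of 9 tested genes of the Ran cycle and other carriers 1 fell, 0 rose and 8 did not pass. Tnpo3, which imports SR splicing factors, averaged 8.07 ± 0.739 FPKM with TABS and 11.0 ± 0.806 FPKM with HA/Mg (adjusted p = 0.0126), while the snRNP import adaptor Snupn averaged 11.1 ± 1.22 and 13.6 ± 1.27 FPKM (adjusted p = 0.0546). Of 4 tested pore genes with other names 2 fell. Ahctf1, the ELYS protein that seeds pores on chromatin after mitosis, averaged 3.44 ± 0.0925 FPKM with TABS and 5.45 ± 0.967 FPKM with HA/Mg (adjusted p = 0.0137). Seh1l, a further subunit of the Y complex, averaged 14.0 ± 0.476 and 16.2 ± 0.310 FPKM (adjusted p = 0.0174). Sec13, also of the Y complex, did not pass (75.2 ± 2.28 with TABS and 77.8 ± 1.08 FPKM with HA/Mg, adjusted p = 0.354). Of 17 tested mRNA export genes 3 fell and 0 rose, among them Nxt2 (14.3 ± 0.774 with TABS and 19.6 ± 1.40 FPKM with HA/Mg, adjusted p = 0.00851) and Thoc2 of the THO complex (2.09 ± 0.339 and 3.24 ± 0.444 FPKM, adjusted p = 0.0212). Of 15 tested genes of the lamina and envelope 2 fell and 0 rose, the lamina protein Tmpo (6.80 ± 0.728 with TABS and 9.11 ± 0.725 FPKM with HA/Mg, adjusted p = 0.0168) and lamin B1, Lmnb1 (37.0 ± 1.02 and 46.1 ± 5.41 FPKM, adjusted p = 0.0318). The share that fell was 11.1% for the Ran cycle and other carriers, 17.6% for mRNA export and 13.3% for the lamina and envelope, near the 13.1% of all genes tested, and the pore list holds only 4 tested genes. The median log2 changes of the 4 lists were -0.12, -0.13, -0.10 and -0.10. Nup42, listed as Nupl2, did not pass (2.64 ± 0.294 with TABS and 2.86 ± 0.449 FPKM with HA/Mg).

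The GC content of transcripts moved with these changes. Across the 46 tested members, which all share the same 8 libraries, the log2 change had a Spearman correlation of 0.70 with the GC content of the longest transcript and of -0.12 with its length. The members were poorer in GC than the genes tested as a whole (median 46.0% against 49.8%) and longer (median 5060 against 3039 bases). By role the median GC content was 46.5% for the Y complex and 45.9% for the nuclear basket, against 48.3% for the inner ring and 55.0% for the membrane proteins. It was 42.1% for the importins alpha and 42.9% for the exportins. The part of GC content in the differences between roles was not tested. The genes tested were split into 5 classes of equal size by GC content. In class 1 (up to 44.1%) 8 of 14 members fell, against 30.8% of all genes in it, and in class 2 (up to 48.0%) 11 of 15 fell, against 21.3%. In class 3, 2 of 8 fell, against 9.26%. Of 5 members in class 4, 0 changed, against 3.00% of all genes in it that fell and 7.19% that rose. The 3 members that rose were all among the 4 in class 5, the richest in GC, where 12.5% of all genes rose and 0.935% fell.

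**Figure D4:**
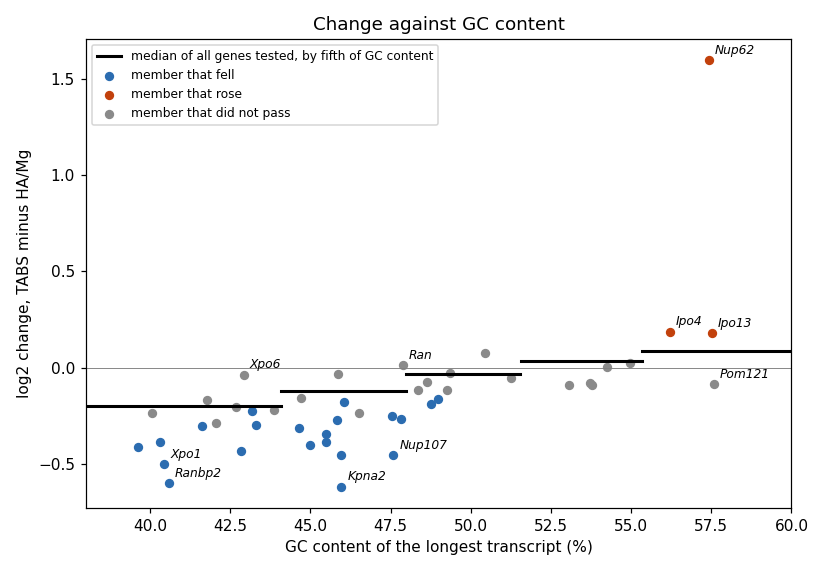
Log2 change, TABS minus HA/Mg (y axis), against the GC content of the longest transcript in percent (x axis) for the 46 tested members. Black bars give the median change of all genes tested in each of 5 classes of GC content, from -0.20 in the lowest to 0.08 in the highest, and the 21 members that fell lie below the bar of their class.

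When the dependence of each library on GC content and transcript length was removed, 8 members fell and 1 rose, against 3.78% and 2.59% of all genes tested (6.37% in either direction), and 15 of the 24 calls ended (adjusted p of 0.0635 to 0.711). The 8 were Kpna2 (log2 change -0.52 ± 0.10, adjusted p = 0.0312), Nup107 (-0.37 ± 0.07, adjusted p = 0.0271), Ranbp2 (-0.35 ± 0.08, adjusted p = 0.0371), Xpo1 (-0.27 ± 0.06, adjusted p = 0.0413), Tpr, Xpo4, Kpna3 and Nup160. By role the 8 were 2 of 6 genes of the Y complex, 1 of 3 of the nuclear basket and 1 of 5 of the cytoplasmic side. The rest were 2 of 5 importins alpha and 2 of 7 exportins. Nup62 kept its rise (1.52 ± 0.32, adjusted p = 0.0344). Kpnb1 shrank to -0.14 ± 0.05 (adjusted p = 0.134) and Ipo5 to -0.03 ± 0.05 (adjusted p = 0.711). Ipo4 and Ipo13 were left at 0.14 ± 0.06 and 0.12 ± 0.05 (adjusted p of 0.145 and 0.159). All 24 called members moved toward 0, and the median over the tested members was -0.09, with -2.8e-05 over all genes tested.

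**Figure D5:**
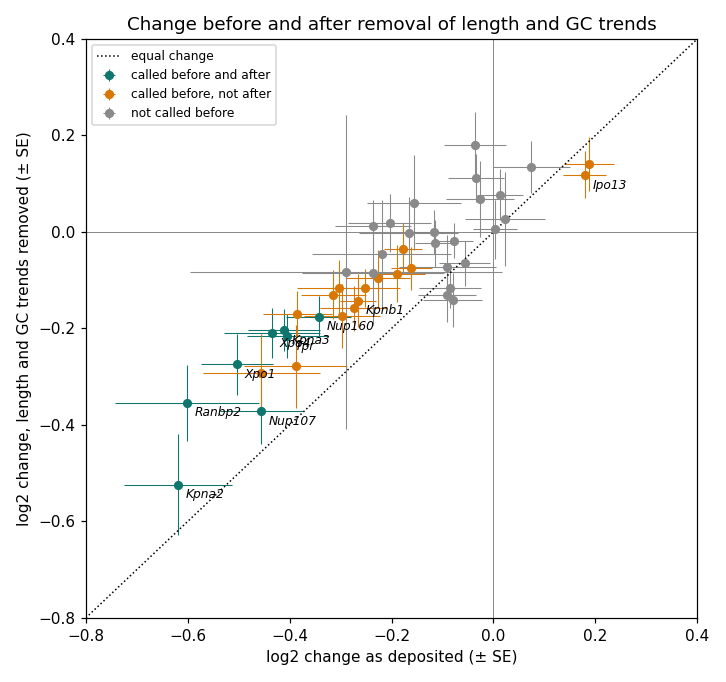
Log2 change with its standard error as deposited (x axis) and after removal of each library's length and GC trends (y axis) for the tested members other than Nup62, whose change lies off the scale. Members that fell lie above the dotted line of equal change, that is nearer to 0 after the removal, with Kpna2, Nup107 and Ranbp2 the lowest.

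The 24 calls also depended on single libraries. Leaving out 1 library gave 7 to 28 members that fell, and the share of all genes that fell ranged with it from 3.04% to 24.1%. With TABS replicate 5 left out 12 members fell (6.26% of all genes), and with TABS replicate 7 left out 12 (6.54%). The count was 7 when HA/Mg replicate 5 was dropped (3.04% of all genes), also 7 for HA/Mg replicate 7 (3.42%) and 10 for HA/Mg replicate 8 (5.05%). The same 7 genes, Kpnb1, Xpo1, Kpna3, Kpna2, Ipo7, Nup107 and Nup160, kept their call whichever library was left out, as did Nup62 among those that rose. These genes had the smallest p of the family in the limma fit of all 8 libraries. The share of all genes that kept a call throughout was not counted. Ipo4 and Ipo13 lost their calls without any 1 of TABS replicates 6 and 7 and HA/Mg replicates 5, 7 and 8, and Ipo4 also without TABS replicate 5 (adjusted p up to 0.0914). Ranbp2 lost its call without TABS replicate 7 or HA/Mg replicate 5, 7 or 8 (adjusted p up to 0.0737), and Tpr without HA/Mg replicate 5 or 7 (adjusted p up to 0.0512). Ipo8 and Ipo5 lost theirs when HA/Mg replicate 5 or 7 was dropped, and Xpo4 also for HA/Mg replicate 8. Of the 8 fits that leave out a library, 3 called Nup153 and Nup88, 2 called Cse1l, Nup50, Nup37, Nup54, Nup43 and Nup133, and 1 called Nup98, in each case counting the one without HA/Mg replicate 6. In no case did a called member change sign. With the replicate number as a block 0 of all 10161 genes tested passed, and so 0 members (limma, adjusted p of 0.0589 to 0.130 for the 24). The block left the log2 changes as they were, with fewer degrees of freedom for the error. The smallest adjusted p of any gene in that fit was 0.0589.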

How the data were processed

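RNA of 8 libraries was measured by paired-end sequencing on a NovaSeq, from TRIzol extracts and NEBNext Ultra libraries, per the labels' protocols. The submitters' processing notes name fastp, STAR, DESeq2 and the build GRCm38. Values are FPKM as deposited by the authors, in 1 table with a row per gene, and no count test was run on them. For the FPKM step, its tool, annotation and use of strand were not given in the sources used here. Library columns were assigned through the sample descriptions.

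Genes reaching 1 FPKM in 4 or more libraries (10161) were tested together on log2(FPKM + 1) with limma 3.58.1 in R 4.3.3 (trended variance, two-sided, Benjamini-Hochberg adjusted p under 0.05), TABS minus HA/Mg, without a block. Fold changes on this scale understate those of low genes, and fold values in the text are ratios of mean FPKM. Length and GC trends were removed per library with splines of 4 degrees of freedom on the longest transcript of GENCODE M21. Transcript similarity was searched with blastn 2.17.0. The fit was also run on simulated data with noise drawn separately for each gene. Those data hold no shift shared by a whole library, so that run cannot judge the effect of such shifts. Values in every library are given for the 12 tested members with the smallest p, those with the most positive and most negative change, and 12 fixed by name (Ran, Kpnb1, Kpna2, Cse1l, Xpo1, Nup98, Nup153, Tpr, Ranbp2, Nup62, Nup107, Nup210). From each further list the 2 genes with the smallest p are named. Kpna1, Il4i1 and Atf5 were added after their values were seen. The members and lists were chosen with earlier results of these data known. Alternatives were other pseudocounts, filters, scalings and variance models, the trend removal, a replicate block and leaving out each library. Promoter sequences are from RefSeq on GRCm38.p6.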

Additional observations from a re-analysis of the deposited data

Results flagged for a closer look

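Within the groups of 4 libraries, 92 sets of member values were examined for a library far from the others. Of these, 9 (9.78%) stood past Dixon's 95% critical value for the ratio of gap to range. Chance gives about 1 in 20 for independent sets, but these sets share the same 8 libraries, so that rate cannot judge the count. The rate over all genes was not counted. For 5 of the 9 the library apart was HA/Mg replicate 6, below the other HA/Mg libraries. The ratio was 0.952 for Nup107, 0.926 for Nup153, 0.896 for Nup54, 0.876 for Nup205 and 0.840 for Xpo1. Kpna1 was high in replicate 6 of both materials, with a ratio of 0.952 in TABS libraries and 0.913 in HA/Mg libraries. Ipo13 was low in HA/Mg replicate 5 (0.894), and Ipo9 was high in TABS replicate 7 (0.880).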

How the results depend on the processing

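Over all genes 1842 of 10161 changed, against 808 of 22906 with no filter on low values. The count was 647 with length and GC trends removed, 3532 with array weights and 414 to 3309 with 1 library left out. Of the members 21 fell, against 11 with no filter, 8 with trends removed and 7 to 28 with 1 library left out. Over all genes tested the share that fell was 13.1%, against 2.57%, 3.78% and 3.04% to 24.1% in the same order. The members that rose numbered 3, against 1 with no filter, 1 with equal sums, 1 with trends removed and 1 to 3 with 1 library left out. Over all genes tested the share that rose was 5.07%, against 0.960%, 2.47%, 2.59% and 1.06% to 8.57% in the same order. With no filter Nup62 itself did not pass (limma, adjusted p = 0.0507), so the member that rose there was another. The median change of -0.20 was -0.14 under quantile normalization, -0.0851 with trends removed and -0.22 to -0.16 with 1 library left out. The replicate block, added alone or with trends removed, left 0 genes, 0 members that fell and 0 that rose, with a median of -0.20 alone and -0.0851 with trends removed. Same-numbered libraries correlated at -0.27 to 0.13 over all genes, and not every library correlated best with its own number. The highest correlation of any pair across the materials was 0.38, between TABS replicate 7 and HA/Mg replicate 6. Those libraries also had the fewest genes at 1 FPKM or more, 9908 and 9967. Same-numbered libraries were treated as sharing only a number, although Kpna1 was high in replicate 6 of both groups. The near-zero changes turned sign: Ran was -0.0378 with equal sums, -0.0796 with quantile normalization and -0.0157 to 0.0303 with 1 library left out. Nup210 was -0.0254 with equal sums, -0.0384 with array weights and -0.0396 to 0.0704 with 1 library left out. Of the 24 calls, 5 (Xpo1, Kpna3, Kpna2, Nup107 and Nup160) held in all 19 alternatives without a block, and 0 reversed in any. The share of all genes whose calls held in this way was not counted. The cause of these differences was not tested. Depth is only estimated, which limits the genes at low FPKM.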
